A study of Mus musculus with 18 samples.

Results

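The 43 genes described here form a list built around ATF4, a bZIP transcription factor of the integrated stress response. Most are known as ATF4 targets, while Eif2ak4 codes for a kinase upstream of ATF4. The 43 code for stress regulators, amino acid transporters, enzymes of amino acid synthesis and aminoacyl-tRNA synthetases. They were chosen by name, as the rows of the count table whose symbol is on the list, and all 43 were found among its 17672 genes. Of these, 40 had enough counts to be tested with the 10178 genes that passed the filter on low counts. The 3 that did not pass were Chac1, Ddit3 and Ppp1r15a, whose counts are given at the end.

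RNA was measured in a mouse brown preadipocyte line differentiated to adipocytes in culture, with indomethacin added at the start of differentiation. Every culture, controls included, carried a stable shRNA against Abhd5 and an shRNA-resistant ABHD5 with an mCherry tag that doxycycline (Dox) switches on. ABHD5 activates the triglyceride lipase ATGL. Cells without Dox carry the genotype label "ABHD5 KD" and cells with Dox at 1 µg/ml the label "WT", although the latter hold the shRNA and the tagged transgene too. In both states the cells were treated for 3 h with the vehicle DMSO, with 10 nM isoproterenol (ISO), a β-adrenergic agonist, or with 20 µM SR-3420, a ligand that releases ABHD5 to ATGL without cAMP signalling. The 6 groups of 3 libraries were DMSO, ISO and SR-3420 without Dox and the same treatments with Dox. The comparison within each Dox state asks which genes respond to the agent, and the comparison between the states asks whether the response differs with Dox. No group had Dox without the transgene. Effects of ABHD5, of its mCherry tag and of doxycycline itself therefore cannot be told apart in that comparison.

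In the integrated stress response, kinases that sense amino acid shortage, misfolded protein in the endoplasmic reticulum, heme deficiency or double-stranded RNA phosphorylate the initiation factor eIF2α. General translation then falls while translation of the Atf4 mRNA rises, and ATF4 pairs with C/EBP and other bZIP proteins on C/EBP-ATF response elements near genes for amino acid supply and tRNA charging. Trib3, Ddit3, Chac1 and Ppp1r15a act further down as brakes or effectors of the same response. The row for Atf4 itself was not analysed here.

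The unit throughout is CPM, the deposited count of a gene per 1000000 counts of its library, with the library total scaled by TMM factors. The methods name the gene option of the counting tool. The length listed beside the counts came within 10% of a gene's intron length for 72.6% of 16542 genes and of its exon length for 2.27%, and it is not known whether exon reads, intron reads or both were counted. Library totals ran from 689910 to 1956565 counts. Abhd5, the targeted gene, stood at 46.8, 55.3 and 54.3 CPM in the DMSO libraries without Dox and at 578, 650.1 and 480.3 CPM with Dox. Without Dox it was higher in the agents' libraries, at 172, 144 and 129 CPM in ISO and 77.2, 70.3 and 77.8 CPM in SR-3420, and with Dox it lay between 571 and 854 CPM in both. The log2 difference with Dox in DMSO was 3.46 ± 0.17 (SE, adjusted p = 2.44e-14), as the labels have it. Of 11 brown adipocyte markers 10 were in the table, and their summed level ran without Dox from 3111 to 3679 CPM in DMSO, 4200 to 4462 CPM in ISO and 4377 to 4609 CPM in SR-3420, and with Dox from 3752 to 4143, 6121 to 6623 and 5149 to 6118 CPM. Summed levels over all libraries lay between 103 and 172 CPM for 6 preadipocyte markers, 3.73 and 20.7 CPM for 5 macrophage and leukocyte markers, 6.75 and 25.6 CPM for 5 endothelial markers and 0 and 5.18 CPM for 4 muscle markers, with Myod1 and Myh1 at 0 counts in every library. The endothelial sum was 17.2 to 25.6 CPM in ISO and 6.75 to 17.1 CPM in the other groups, and it followed 1 gene, Tek, with 15 to 27 counts in ISO and 4 to 23 elsewhere, while the other 4 markers had 0 to 7 counts per library. The preadipocyte sum was lower in ISO than in DMSO, at 103 to 108 against 142 to 166 CPM without Dox and 104 to 150 against 152 to 172 CPM with Dox. Of its 3 tested markers Pdgfrb fell with ISO without Dox (-1.20 ± 0.16, SE, adjusted p = 1.59e-06) and Ly6a rose (3.29 ± 0.54, SE, adjusted p = 3.53e-05). The part of these markers in the results was not tested. Fewer cells of a type and less RNA per cell cannot be told apart in these bulk samples. One library stood apart. In replicate 1 of SR-3420 with Dox the 10 highest genes took 35.6% of counts against 16.3 to 26.5% in the other 17, so the results that rest on it are also given without it.

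With Dox, 19 of the 40 tested members rose and none fell after SR-3420, where 6.53% of all genes tested rose and 3.37% fell, and the median log2 fold change of the members was 0.71 against -0.01 over all genes. The brown adipocyte markers moved in the same comparison, with 6 of 10 higher, 0 lower and a median of 0.70, and with ISO and Dox 9 of 10 were higher at a median of 0.74. Their part in the members' rise was not tested. Without Dox, 0 of 40 passed in either direction (0.698% of all genes higher, 0.0688% lower), 2 had an unadjusted p under 0.05, and the median was -0.0036. DESeq2 called 1 member there, Slc1a5. With ISO, 16 members rose and 4 fell with Dox (16.4% and 16.1% of all genes), at a median of 0.44, and 10 rose and 4 fell without Dox (14.5% and 13.5%), at a median of 0.11. The counts of members falling with ISO, 10% of the members in both states, were not above those shares. Dox itself moved 0 of 40 members in DMSO (1.09% of all genes higher, 0.0884% lower), 1 had an unadjusted p under 0.05, and DESeq2 called 0.

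With the replicate number as a block in the fit, 23 members passed for SR-3420 with Dox, the same 19 and Phgdh, Shmt2, Slc7a1 and Slc7a5. For ISO with Dox 26 passed, the same 20 and Cars, Eif4ebp1, Psph, Sars, Sesn2 and Tars, and for SR-3420 without Dox 1 passed, Slc1a5. The shares of all genes passing with the block are not given here, so the larger counts are not read as a result about the members. Replicate 1 of each agent with Dox carried weight in these counts. Without replicate 1 of SR-3420 with Dox, 12 of the 19 members still passed, and the 7 lost were Aldh18a1, Gars, Iars, Mthfd2, Nars, Sars and Yars. Without replicate 1 of ISO with Dox, 12 of the 20 members still passed in that comparison. Scaling by library totals alone left 11 members passing for SR-3420 with Dox, a setting that shifted the median of all genes to -0.21 and that of the members to 0.48 on the log2 scale.

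**Figure D1:**
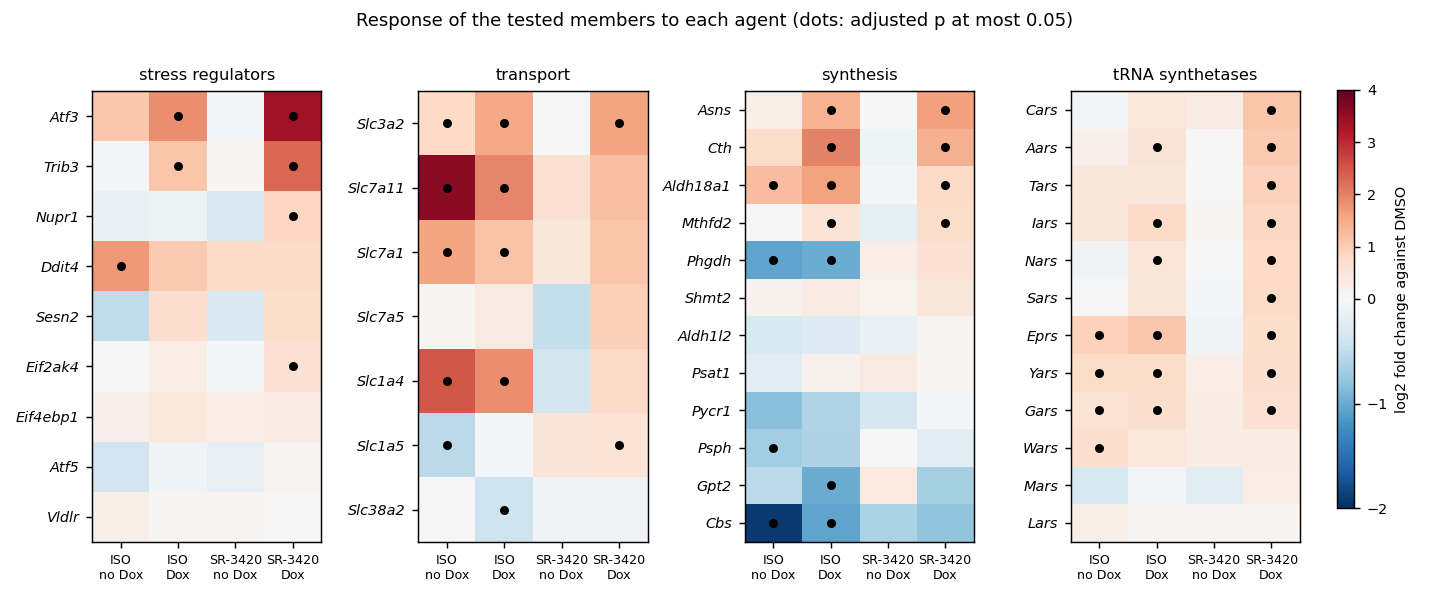
Log2 fold change against DMSO for the 40 tested members (rows, by role and ordered by the response to SR-3420 with Dox) under ISO and SR-3420 in both Dox states (columns), with a dot where the adjusted p was 0.05 or less. The column for SR-3420 without Dox holds 0 dots and the column for SR-3420 with Dox holds 19, all in the red, and Phgdh and Cbs are blue in both ISO columns.

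Promoter sequences are shown because so many members moved together. The C/EBP-ATF response element was searched as the letters TGATGNAA on both strands, in RefSeq windows on GRCm38.p6 from 250 bases before to 50 bases after each annotated start, which were given for 34 of the 43 members. It was found for 14 of these 34 members (41.2%) and for 4.51% of all 27025 genes with a window. Among the tested members with a window, 9 of the 15 that rose with SR-3420 and Dox held a match, as did 4 of the other 16. Of all 542 genes with a window that rose in that comparison 5.17% held one, against 2.65% of 8217 tested genes. The 28 of these 542 with a match include the 9 members. The list was chosen around ATF4, so its high share of matches follows in part from that choice and is no separate support. The cAMP response element, searched as TGACGTCA, was found for 1 member (2.94%), Ppp1r15a, against 2.03% of all genes. These are counts of letters in a window and do not show that a site is bound. The matches of 8 of these 9 risers, each with 11 bases on either side, read as follows on the strand of the match, with the match in capitals.
Atf3 (chr1:191183425-191183454, plus strand): cgcggacttggTGATGCAAgtgcgagaagg
Trib3 (chr2:152344028-152344057, plus strand): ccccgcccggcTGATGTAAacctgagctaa
Nupr1 (chr7:126625562-126625591, plus strand): caagccctgtcTGATGCAAtctggcccttt
Asns (chr6:7693214-7693243, minus strand): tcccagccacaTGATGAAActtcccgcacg
Gars (chr6:55037960-55037989, minus strand): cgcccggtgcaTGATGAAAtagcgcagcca
Yars (chr4:129189895-129189924, plus strand): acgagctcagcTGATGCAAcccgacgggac
Iars (chr13:49682126-49682155, minus strand): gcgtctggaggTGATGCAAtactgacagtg
Tars (chr15:11399655-11399684, plus strand): agctaaccagcTGATGCAAcgggactcctg

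Counted from the annotated start, the upstream-most base of the match lay 110 bases before it in both Atf3 and Nupr1 and 23 bases before it in Asns, and at base 15 after it in Trib3. The cystine transporter gene Slc7a11, which rose with ISO, held 2 matches on opposite strands that share part of their flanks. Slc3a2, the transporter subunit described below, held no match in its window, which says only that these letters are not there. The 250 bases before the start of Asns, with its match in capitals, and of Slc3a2 are given 5′ to 3′ on the strand of the gene, as a pair with and without the element.
Slc7a11 (chr3:50443661-50443690, minus strand): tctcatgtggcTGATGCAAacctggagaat
Slc7a11 (chr3:50443642-50443671, plus strand): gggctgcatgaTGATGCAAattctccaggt
Asns (chr6:7693210-7693459, minus strand): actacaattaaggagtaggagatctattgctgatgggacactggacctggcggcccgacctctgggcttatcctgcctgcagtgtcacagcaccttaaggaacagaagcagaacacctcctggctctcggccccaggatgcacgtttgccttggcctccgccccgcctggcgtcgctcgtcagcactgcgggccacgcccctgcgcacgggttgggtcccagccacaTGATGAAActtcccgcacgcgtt
Slc3a2 (chr19:8713898-8714147, minus strand): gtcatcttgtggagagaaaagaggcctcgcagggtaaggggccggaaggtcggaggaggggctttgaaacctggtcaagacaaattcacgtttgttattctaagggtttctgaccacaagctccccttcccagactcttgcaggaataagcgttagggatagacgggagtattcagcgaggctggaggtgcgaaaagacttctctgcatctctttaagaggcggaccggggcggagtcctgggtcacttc

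Among the stress regulators, 4 of the 9 tested rose with SR-3420 and Dox, namely Atf3, Trib3, Nupr1 and Eif2ak4, and 0 fell (6.53% and 3.37% of all genes). Atf3, a stress-induced bZIP factor (chr1:192994176-193007212 on mm9, minus strand), was at 2.86, 5.16 and 1.11 CPM in DMSO with Dox, 10.8, 14.9 and 7.65 CPM in ISO with Dox and 34.9, 43.4 and 18.8 CPM in SR-3420 with Dox. The 3 groups did not overlap. The log2 fold change was 3.37 ± 0.43 (SE, adjusted p = 3.33e-06) for SR-3420 and 1.85 ± 0.50 (SE, adjusted p = 0.00528) for ISO, on low counts of 6, 5 and 1 in DMSO. Without Dox, Atf3 lay between 1.73 and 8.86 CPM in all 9 libraries.

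Trib3, a pseudokinase that restrains ATF4 and AKT signalling (chr2:152163161-152169796, minus strand), had the second-largest log2 fold change among the members for SR-3420 with Dox. It stood at 20.0, 16.5 and 16.7 CPM in DMSO, 62.9, 28.2 and 27.7 CPM in ISO and 119, 71.0 and 78.3 CPM in SR-3420, all with Dox. Every SR-3420 library with Dox lay above all others of the series. The log2 fold change was 2.29 ± 0.27 (SE, adjusted p = 7.47e-07) for SR-3420 and 1.12 ± 0.29 (SE, adjusted p = 0.00352) for ISO with Dox, and the ISO call was lost without replicate 1 of that group (adjusted p = 0.112). Without Dox the 9 libraries lay between 15.7 and 23.6 CPM whatever the agent.

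Nupr1, a small stress-induced nuclear protein, was at 76.9, 88.7 and 74.7 CPM in DMSO with Dox, 96.1, 67.3 and 59.3 CPM in ISO and 162, 147 and 129 CPM in SR-3420, a log2 fold change of 0.87 ± 0.16 (SE, adjusted p = 0.000437) for the ligand. ISO with Dox overlapped DMSO, and the log2 fold change there was -0.10 (adjusted p = 0.686). Eif2ak4 codes for GCN2, the eIF2α kinase that senses uncharged tRNA. It went from 59.2, 61.9 and 61.3 CPM to 85.6, 102 and 82.2 CPM with SR-3420 and Dox, a log2 fold change of 0.56 ± 0.16 (SE, adjusted p = 0.0195). This call was lost without replicate 1 of DMSO with Dox or replicate 2 of SR-3420 with Dox (adjusted p up to 0.0947).

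Ddit4, an inhibitor of mTORC1, rose with ISO without Dox, from counts of 1, 3 and 5 to 11, 13 and 11, at 1.73 ± 0.60 (SE, adjusted p = 0.0304) on the log2 scale. Its listed length was 411 bases and its call was lost without any of 3 libraries (adjusted p up to 0.189). With Dox its ISO value was 1.04 (adjusted p = 0.135). Sesn2, a leucine sensor and ATF4 target, gave 52.4, 16.8 and 23.8 CPM with SR-3420 and Dox against 16.7, 22.7 and 20.1 CPM in DMSO. The high value was that of replicate 1, the library that stood apart, and the comparison did not pass (log2 0.70, adjusted p = 0.182), but it did without replicate 2 of SR-3420 (adjusted p = 0.0449). Atf5, Eif4ebp1 and Vldlr passed in none of the 8 comparisons.

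**Figure D2:**
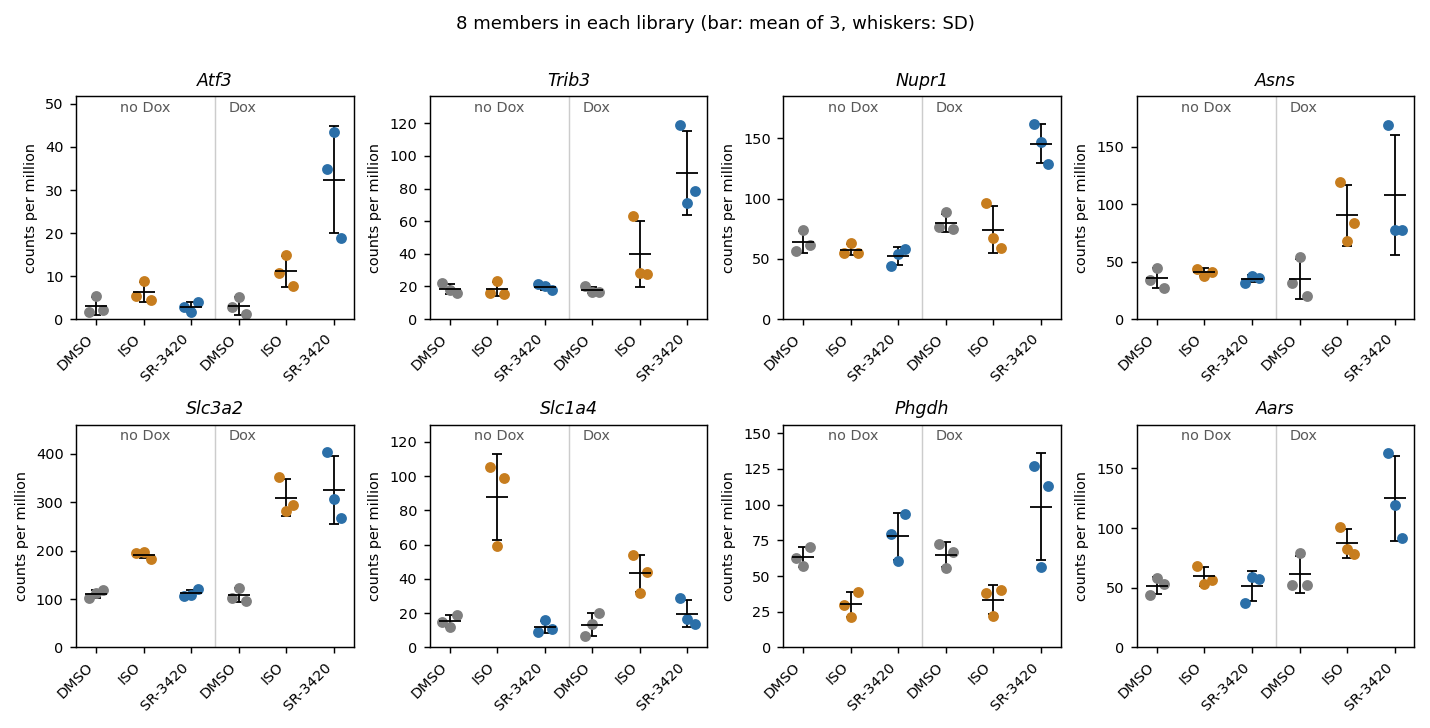
CPM (y axis, from 0) of 8 members in each of the 18 libraries (points), by treatment and Dox state, with the mean of 3 (bar) and SD (whiskers). Atf3, Trib3 and Nupr1 are highest in SR-3420 with Dox, Slc3a2 and Asns are raised by ISO and SR-3420 with Dox, Slc1a4 is highest in ISO without Dox, and Phgdh is lowest in both ISO groups.

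Among the 7 transporter genes, SR-3420 with Dox raised 2 (Slc3a2 and Slc1a5) and lowered 0 (6.53% and 3.37% of all genes). ISO raised 4 and lowered 1 in each Dox state. Of all genes, ISO raised 14.5% and lowered 13.5% without Dox, and raised 16.4% and lowered 16.1% with Dox. Slc3a2 codes for the heavy chain 4F2hc, or CD98, which carries several amino acid transporters to the cell surface (chr19:8781372-8797859, minus strand). Its levels were 102, 112 and 119 CPM in DMSO, 195, 198 and 183 CPM in ISO and 105, 109 and 121 CPM in SR-3420 without Dox. With Dox they were 103, 124 and 96.9 CPM, 353, 282 and 294 CPM and 403, 306 and 267 CPM in the same order. SR-3420 without Dox overlapped DMSO, ISO without Dox lay above both, and the ISO and SR-3420 groups with Dox lay above every other library but overlapped each other. The log2 fold change was 0.79 ± 0.15 (SE, adjusted p = 0.000295) for ISO without Dox, 1.52 ± 0.15 (SE, adjusted p = 4.11e-09) for ISO with Dox and 1.59 ± 0.15 (SE, adjusted p = 1.6e-08) for SR-3420 with Dox. These 3 calls held under each alternative and with each library left out.

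With SR-3420 and Dox, 0 of the 4 tested light chains that pair with Slc3a2 passed (6.53% of all genes higher, 3.37% lower). Slc7a6 (y+LAT2) was at 72.5, 52.3 and 54.5 CPM against 67.3, 52.6 and 55.7 CPM in DMSO, and Slc7a8 (LAT2) at 3.49, 4.93 and 1.98 CPM against 3.34, 3.10 and 3.34 CPM. Slc7a5 (LAT1), the partner for large neutral amino acids, had 51.5, 18.7 and 24.8 CPM against 20.0, 12.4 and 14.5 CPM, a log2 value of 0.96 ± 0.33 (SE, adjusted p = 0.0614) that became 0.40 without replicate 1 of SR-3420. Slc7a5 passed without replicate 2 of that group (log2 1.23, adjusted p = 0.0165), without replicate 3 of SR-3420 without Dox (adjusted p = 0.0471) and with no filter on low counts (adjusted p = 0.0179), and with the replicate block its log2 value was 1.01 (adjusted p = 0.00721). Slc7a11 (xCT), the cystine and glutamate exchanger, had 8.74, 2.96 and 7.93 CPM against 1.91, 5.16 and 2.23 CPM (log2 1.20, adjusted p = 0.295). Slc7a7 and Slc7a10 had 0 to 7 counts per library and were not tested.

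Under ISO, 3 of the 4 light chains rose in both Dox states (14.5% of all genes without Dox and 16.4% with Dox). Slc7a11 went from 1, 3 and 1 counts in DMSO to 35, 23 and 13 counts in ISO without Dox, a count ratio per library total of 12.4 with a 95% interval of 5.07 to 39.3 that covers counting error only. The fitted log2 fold change was 3.60 ± 0.63 (SE, adjusted p = 8.92e-05) without Dox and 1.95 ± 0.59 (SE, adjusted p = 0.0118) with Dox, and the latter call was lost without replicate 1 of DMSO or replicate 2 of ISO with Dox (adjusted p up to 0.0995). Slc7a6 rose by 1.53 ± 0.21 (SE, adjusted p = 2.82e-06) without Dox and by 1.00 ± 0.22 (SE, adjusted p = 0.000635) with Dox. Slc7a8 rose by 1.80 ± 0.56 (SE, adjusted p = 0.0167) and 2.45 ± 0.45 (SE, adjusted p = 0.000106), respectively, and its call without Dox was lost when any of 3 libraries was left out (adjusted p up to 0.123). In the direct comparison with Dox, Slc7a6 and Slc7a8 were lower under SR-3420 than under ISO, with log2 differences of -1.0 ± 0.22 (SE, adjusted p = 0.00150) and -2.37 ± 0.47 (SE, adjusted p = 0.000451).

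The levels of the heavy chain and its partners are compared per kilobase of the length listed in the table, a scale that rests on that length being the one counted. A change against a single partner does not depend on it. In DMSO with Dox, Slc3a2 had a mean of 9.03 CPM per kilobase, Slc7a6 3.01, Slc7a5 0.681, Slc7a8 0.0596 and Slc7a11 0.0505. In SR-3420 with Dox, Slc3a2 had 27.2 and Slc7a6 3.07 CPM per kilobase, and in ISO without Dox they had 16.1 and 10.2. The log2 ratio of Slc3a2 to the sum of the 6 light chains was 0.89, 1.54 and 1.13 in DMSO, 1.73, 1.90 and 1.49 in ISO and 2.35, 2.69 and 2.39 in SR-3420, all with Dox. Without Dox it was 0.81, 1.55 and 0.91 in DMSO, 0.24, 0.84 and 0.27 in ISO and 0.89, 1.38 and 1.39 in SR-3420. SR-3420 with Dox lay above all other libraries, 1.28 above DMSO (exact two-sided permutation test, 3 against 3, p = 0.1, the smallest this design allows). This difference followed Slc7a6, against which alone it was 1.55. Against Slc7a5 alone it was 0.68 (exact p = 0.2) and against Slc7a11 alone 0.58 (exact p = 0.5), with overlapping groups. Within replicate numbers 1, 2 and 3, values added after seeing the data and not tested, the difference against Slc7a5 was 0.61, 0.72 and 0.71, and against Slc7a11 -0.13, 2.02 and -0.14. ISO differed from DMSO by -0.64 without Dox and by 0.52 with Dox (exact p = 0.2 for both), and SR-3420 without Dox by 0.13 (exact p = 0.9). Within the numbers, the ISO difference was -0.57, -0.71 and -0.64 without Dox and 0.83, 0.36 and 0.36 with Dox, of 1 sign in each state. The difference of -0.64 depended on the partner, being -0.80 against Slc7a6 alone, -2.50 against Slc7a11 alone and 0.74 against Slc7a5 alone.

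**Figure D3:**
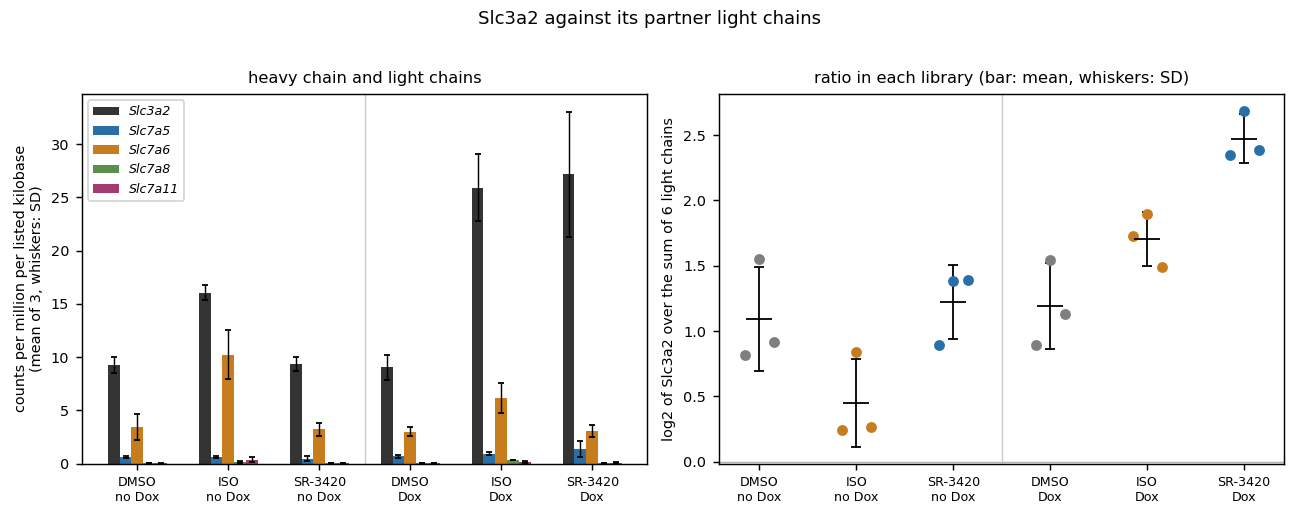
Left, mean CPM per listed kilobase (bars from 0, n = 3, whiskers SD) of Slc3a2 and 4 light chains in the 6 groups. Right, log2 ratio of Slc3a2 to the summed light chains in each library (points, with mean and SD), where the 3 libraries of SR-3420 with Dox lie between 2.35 and 2.69, above every other library.

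Slc1a4 (ASCT1), a carrier of alanine, serine and cysteine, was at 15.0, 12.1 and 19.1 CPM in DMSO and 105, 59.1 and 99.2 CPM in ISO without Dox, and at 6.68, 13.4 and 20.1 and 53.8, 32.1 and 44.0 CPM with Dox. The groups did not overlap in either state, and the log2 fold change was 2.48 ± 0.31 (SE, adjusted p = 5.49e-07) and 1.85 ± 0.33 (SE, adjusted p = 8.3e-05). With SR-3420 and Dox it had 28.8, 16.8 and 13.9 CPM, which overlapped DMSO (log2 0.76, adjusted p = 0.237). Slc7a1 (CAT1), the carrier of cationic amino acids that needs no heavy chain, rose with ISO by 1.59 ± 0.40 (SE, adjusted p = 0.00350) without Dox and by 1.14 ± 0.36 (SE, adjusted p = 0.0157) with Dox. The second call was lost without any of 3 libraries (adjusted p up to 0.0806). Its value for SR-3420 with Dox, 1.11 on the log2 scale, lay just outside the threshold (adjusted p = 0.0509) and passed in 7 of 24 alternatives.

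Slc1a5 (ASCT2), the glutamine carrier, went the other way with ISO without Dox, from 276, 248 and 289.7 CPM to 151, 179 and 228 CPM. The log2 fold change was -0.54 ± 0.15 (SE, adjusted p = 0.00914), a call lost without replicate 1 of ISO (adjusted p = 0.0802). With ISO and Dox it passed in neither direction. With SR-3420 it was at 412, 325 and 441 CPM without Dox (log2 0.53, adjusted p = 0.103) and at 454, 487 and 387 CPM with Dox, against 274, 309.6 and 325 CPM in DMSO with Dox (log2 0.55 ± 0.15, SE, adjusted p = 0.0130). The 3 libraries of SR-3420 lay above those of DMSO in both states. The difference between the states was 0.02 ± 0.21 (SE) on the log2 scale. The call with Dox was lost without replicate 1 of DMSO or replicate 2 of SR-3420 (adjusted p up to 0.0820). Slc38a2 (SNAT2), a sodium-coupled neutral amino acid carrier, fell by 0.42 on the log2 scale with ISO and Dox (adjusted p = 0.0422), a call that was lost when any of 7 libraries was left out.

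In the synthesis pathways, SR-3420 with Dox raised 4 of 12 genes and lowered 0 (6.53% and 3.37% of all genes). ISO raised 4 and lowered 3 with Dox (16.4% and 16.1% of all genes) and raised 1 and lowered 3 without Dox (14.5% and 13.5%). Asns, the asparagine synthetase (chr6:7625171-7643182, minus strand), was at 31.0, 53.7 and 20.1 CPM in DMSO, 119, 68.1 and 83.2 CPM in ISO and 169, 77.9 and 77.3 CPM in SR-3420 with Dox. All libraries of both agents lay above DMSO, and replicate 1 was the highest in both. The log2 fold change was 1.65 ± 0.28 (SE, adjusted p = 0.000126) for SR-3420 and 1.38 ± 0.28 (SE, adjusted p = 0.000329) for ISO, and without replicate 1 of SR-3420 the former was 1.17 (adjusted p = 0.00487). In the 9 libraries without Dox, Asns lay between 27.2 and 44.5 CPM.

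Cth, which makes cysteine from cystathionine, went from 12.9, 15.5 and 13.4 CPM in DMSO to 75.4, 39.9 and 49.8 CPM in ISO and 51.5, 26.6 and 30.7 CPM in SR-3420 with Dox, with log2 fold changes of 1.99 ± 0.27 (SE, adjusted p = 1.19e-06) and 1.41 ± 0.29 (SE, adjusted p = 0.00118). Cbs, the enzyme one step before it in the same pathway, moved the opposite way with ISO. It fell from 13.2, 21.6 and 25.1 CPM to 5.36, 5.91 and 4.47 CPM without Dox, a log2 fold change of -1.91 ± 0.40 (SE, adjusted p = 0.000678), and from 15.3, 28.9 and 18.9 CPM to 12.4, 7.04 and 9.57 CPM with Dox (-1.06 ± 0.34, SE, adjusted p = 0.0167). The call with Dox was lost without replicate 2 of DMSO or of ISO (adjusted p up to 0.110).

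Aldh18a1, which commits glutamate to proline synthesis, was also raised by both agents. It went from 324, 421 and 235 CPM to 703, 844 and 749 CPM with ISO without Dox and from 293, 319 and 279 CPM to 786, 1135 and 779.8 CPM with Dox, log2 fold changes of 1.23 ± 0.19 (SE, adjusted p = 1.18e-05) and 1.60 ± 0.19 (SE, adjusted p = 1.2e-07). With SR-3420 and Dox it had 618, 466 and 418 CPM (log2 0.75 ± 0.19, SE, adjusted p = 0.00782), a call lost without replicate 1 (adjusted p = 0.0797). Mthfd2 of the mitochondrial folate cycle rose by 0.72 ± 0.20 (SE, adjusted p = 0.0200) with SR-3420 and by 0.55 ± 0.20 (SE, adjusted p = 0.0371) with ISO, both with Dox. Leaving out replicate 1 of DMSO, replicate 2 of DMSO or the agent's replicate 1 ended both calls, as did leaving out replicate 3 of ISO for the second (adjusted p up to 0.366 and 0.122).

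Of the serine pathway genes 0 passed with SR-3420 and Dox in the fit without the block. Phgdh, the first enzyme, fell with ISO from 62.7, 56.7 and 70.4 CPM to 30.0, 21.7 and 38.8 CPM without Dox and from 72.6, 55.7 and 66.9 CPM to 38.1, 21.9 and 40.2 CPM with Dox. These groups did not overlap, and the log2 fold change was -1.05 ± 0.27 (SE, adjusted p = 0.00493) and -1.0 ± 0.26 (SE, adjusted p = 0.00365). With SR-3420 and Dox, Phgdh had 127, 56.2 and 113 CPM, which did not pass (log2 0.59, adjusted p = 0.104) but did without replicate 2 of SR-3420 (adjusted p = 0.00634), with no filter on low counts (0.0226) and with the replicate block (0.00584). Psph, the last enzyme, fell with ISO without Dox by 0.69 on the log2 scale (adjusted p = 0.0467), but the call was lost when any of 11 libraries was left out. Gpt2, the mitochondrial alanine aminotransferase, fell with ISO and Dox by 0.99 (adjusted p = 0.0452) and lost its call without any of 8 libraries. Psat1, Shmt2, Aldh1l2 and Pycr1 passed in none of the 8 comparisons.

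The aminoacyl-tRNA synthetases on the list made up 9 of the 19 risers under SR-3420 with Dox. Of the 12, 9 passed and all 12 had a positive log2 fold change, with a median of 0.74 and a range from 0.09 to 1.11, against 6.53% of all genes passing higher. Without replicate 1 of SR-3420 with Dox, 4 passed (Aars, Cars, Eprs and Tars) and the median was 0.51. Cars, for cysteine, went from 56.3, 56.8 and 54.6 CPM to 177, 81.9 and 102 CPM, a log2 fold change of 1.11 ± 0.21 (SE, adjusted p = 0.000664). Aars, for alanine, went from 52.5, 79.5 and 52.4 CPM to 163, 119 and 92.1 CPM (1.05 ± 0.20, SE, adjusted p = 0.000638). Tars, for threonine, went from 42.0, 56.8 and 45.7 CPM to 109, 91.7 and 66.4 CPM (0.92 ± 0.17, SE, adjusted p = 0.000593). None of these 3 groups overlapped its DMSO libraries.

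The other 6 synthetases that rose with SR-3420 and Dox had log2 fold changes between 0.60 and 0.82, namely Iars, Nars, Sars, Eprs, Yars and Gars. Eprs, for glutamate and proline, was the only one of the 6 whose call held with each library left out. Replicate 1 of SR-3420 was needed for Iars, Nars, Sars, Yars and Gars, replicate 1 of DMSO with Dox also for Sars and Yars, and replicate 3 of DMSO with Dox also for Yars (adjusted p up to 0.310). Yars overlaps the gene C77080, with which it may share reads. Wars, Mars and Lars had log2 values of 0.29, 0.28 and 0.09 and did not pass. Without Dox, SR-3420 gave log2 values between -0.23 and 0.31 over the 12.

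With ISO, 4 synthetases on the list rose without Dox (Eprs, Gars, Wars and Yars) and 6 with Dox (Aars, Eprs, Gars, Iars, Nars and Yars), where 14.5% and 16.4% of all genes rose. Eprs went from 124, 146 and 104 CPM to 217, 258 and 236 CPM without Dox (0.93 ± 0.16, SE, adjusted p = 8.98e-05) and from 108, 161 and 109 CPM to 256, 279 and 259 CPM with Dox (1.08 ± 0.16, SE, adjusted p = 5.54e-06). The groups did not overlap in either state. Gars with Dox rose by 0.65 ± 0.14 (SE, adjusted p = 0.000644) and Yars by 0.73 ± 0.19 (SE, adjusted p = 0.00317), and these calls held with each library left out. The ISO calls of Aars and Nars with Dox were lost without any of 7 and 4 libraries, that of Iars with Dox without replicate 1 of ISO (adjusted p = 0.0505), that of Yars without Dox when replicate 1 of DMSO was left out (adjusted p = 0.0512) and that of Wars without any of 3 libraries (adjusted p up to 0.113).

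Of 8 other cytosolic synthetase genes, 0 passed with SR-3420 and Dox, at a median of 0.04 and a range from -0.42 to 0.23, and of 15 mitochondrial ones 0 passed higher and 1, Hars2, lower (-0.80 ± 0.18, SE, adjusted p = 0.00432), at a median of -0.08. Of all genes 6.53% passed higher and 3.37% lower in that comparison, so few calls were to be expected in sets of 8 and 15. These medians were 0.00 and -0.14 without replicate 1. Under ISO, 1 of the 8 and 2 of the 15 rose in each Dox state, not above the shares of all genes (14.5% without Dox, 16.4% with Dox). Hars2 passed lower with ISO and Dox too (16.1% of all genes lower). Its log2 value ran from -0.75 to -0.55 over the libraries left out (adjusted p up to 0.0365). Farsa passed without Dox (0.84 ± 0.21, SE, adjusted p = 0.00339) and Farsb with Dox (0.84 ± 0.18, SE, adjusted p = 0.000528). Of the mitochondrial genes Cars2 and Ears2 passed in both states, Cars2 with the largest value, 2.51 ± 0.20 (SE, adjusted p = 8.19e-11) with Dox. The difference between the sets was not tested.

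**Figure D4:**
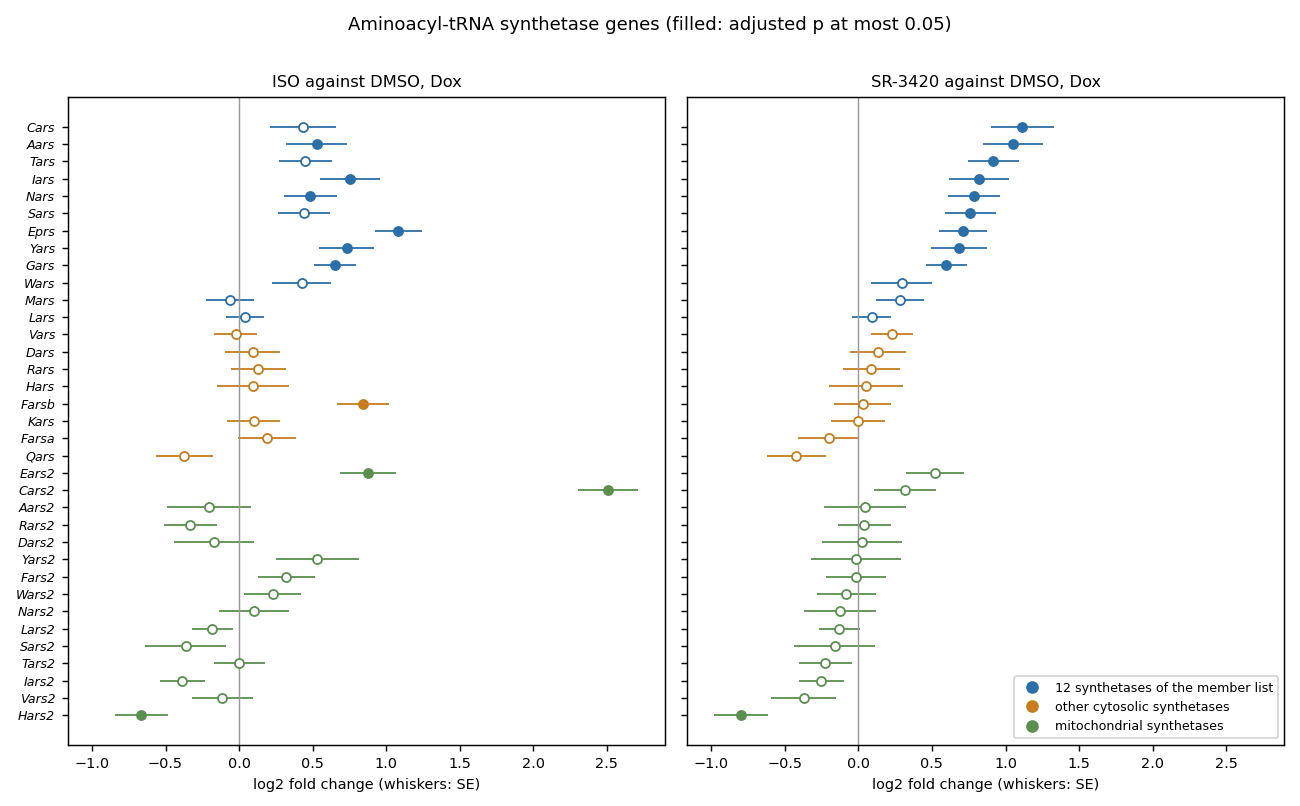
Log2 fold change (x axis, whiskers SE) of 35 aminoacyl-tRNA synthetase genes under ISO (left) and SR-3420 (right) with Dox, coloured by set and filled where the adjusted p was 0.05 or less. Under SR-3420 the filled points on the right of 0 are 9 of the 12 on the ATF4 list, while the other cytosolic and the mitochondrial genes gather around 0.

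The dependence on Dox was tested directly as the response with Dox minus the response without. Abhd5 itself differed between the agents without Dox, as given above, and its part in these differences was not tested. For SR-3420, 3 of 40 members passed (0.54% of all genes higher, 0.216% lower). With the replicate block 13 passed, without a share of all genes to read them against. The 3 passing without the block were Trib3 with 2.21 ± 0.43 (SE, adjusted p = 0.0133), Slc3a2 with 1.58 ± 0.22 (SE, adjusted p = 0.000155) and Nupr1 with 1.16 ± 0.24 (SE, adjusted p = 0.0193). Of the 40 members 20 had an unadjusted p under 0.05, 19 of them higher with Dox, and the median difference was 0.60. Only the call of Slc3a2 held with each library left out. That of Trib3 was lost without replicate 1 of DMSO without Dox (adjusted p = 0.0704), and that of Nupr1 without any of 4 libraries (adjusted p up to 0.0686). Just outside the threshold were Asns (1.65, adjusted p = 0.0579), Atf3 (3.41, 0.0673), Cth (1.49, 0.0807) and Tars (0.92, 0.0807). These 4 depended on the fit, since Asns passed in 8 of 25 alternatives, Atf3 in 3 of 23, and Cth and Tars in 2 of 25 each. With the block these 4 passed, as did Aars, Aldh18a1, Eprs, Mthfd2, Sars and Slc7a5. Without the block, the number passing was 7 without replicate 3 of SR-3420 with Dox and 6 without replicate 2 of DMSO with Dox.

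For ISO, 0 of 40 members passed this test (1.61% of all genes higher, 0.57% lower), 7 had an unadjusted p under 0.05, all higher with Dox, and DESeq2 called 1, Slc3a2. The closest in the edgeR fit was Slc3a2 at 0.73 ± 0.21 (SE, adjusted p = 0.0678), which passed without replicate 2 of ISO with Dox or without replicate 1 of SR-3420 with Dox, and Cth (1.27, adjusted p = 0.0948) passed without replicate 2 of ISO with Dox or with no filter on low counts (adjusted p = 0.0446). By the test within each state, 8 of the 10 members that rose with ISO without Dox were among the 16 that rose with Dox. These were Aldh18a1, Eprs, Gars, Slc1a4, Slc3a2, Slc7a1, Slc7a11 and Yars. Of all genes 14.5% rose without Dox and 16.4% with Dox. Their overlap is not given here, so 8 of 10 is not read as particular to the members. Atf3, Trib3, Asns, Cth, Mthfd2, Aars, Iars and Nars passed with Dox and not without, and Ddit4 and Wars without Dox and not with it. In the fit without the block 0 of these 10 passed the test of the difference. With the block, Asns and Cth passed it, as did Slc3a2, and Cth and Iars also passed within the cells without Dox. Cth was at 19.4, 24.3 and 17.1 CPM in DMSO and 34.3, 28.6 and 35.8 CPM in ISO without Dox, groups that did not overlap (log2 0.72, adjusted p = 0.0589), and this response passed in 6 of 25 alternatives.

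The agents were also set against each other in cells with Dox. SR-3420 gave higher values than ISO for 7 of 40 members and lower values for 2 (9.43% and 10.4% of all genes). Phgdh was higher by 1.58 ± 0.25 (SE, adjusted p = 3.35e-05), Atf3 by 1.52 ± 0.35 (SE, adjusted p = 0.00221), Trib3 by 1.17 ± 0.24 (SE, adjusted p = 0.000677), Nupr1 by 0.97 ± 0.16 (SE, adjusted p = 6.83e-05) and Slc1a5 by 0.57 ± 0.15 (SE, adjusted p = 0.00557), and these 5 calls held with each library left out. Cars was higher by 0.68 (adjusted p = 0.0200) and Tars by 0.47 (adjusted p = 0.0490), calls lost without any of 3 and 15 libraries. Slc1a4 and Aldh18a1 were lower, with log2 differences of -1.10 ± 0.31 (SE, adjusted p = 0.0121) and -0.84 ± 0.18 (SE, adjusted p = 0.00126). The call of Slc1a4 was lost without replicate 1 of ISO or replicate 3 of SR-3420 (adjusted p up to 0.0753). Scaling by library totals alone turned the split from 7 higher and 2 lower to 6 and 3. For Slc3a2 the difference between the agents was 0.07 ± 0.14 (SE) and for Asns 0.27 ± 0.25 (SE) on the log2 scale, which did not pass and turned to -0.13 and -0.23 without replicate 1 of SR-3420.

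Of 13 tested genes for eIF2, its exchange factor, kinases and phosphatase cofactors, 2 rose and 1 fell with SR-3420 and Dox (6.53% and 3.37% of all genes). The risers were Impact, which codes for an inhibitor of GCN2 activation (1.40 ± 0.25, SE, adjusted p = 0.000275), and Eif2s2, the eIF2β subunit (0.94 ± 0.20, SE, adjusted p = 0.00207). The one that fell was Dnajc3, an inhibitor of the kinase PERK, at -0.48 ± 0.15 (SE, adjusted p = 0.0301), which lost its call without any of 4 libraries (adjusted p up to 0.196). Impact rose with ISO and Dox too (1.46 ± 0.24, SE, adjusted p = 3.01e-05), and its SR-3420 response differed between the states by 1.63 ± 0.35 (SE, adjusted p = 0.0233), a call lost without any of 5 libraries. With ISO, 5 of the 13 rose and 1 fell with Dox (16.4% and 16.1% of all genes), and 3 rose and 0 fell without (14.5% and 13.5%). Eif2ak2, the double-stranded RNA kinase PKR, rose with Dox in DMSO, from 48.5, 83.6 and 55.3 CPM to 142, 194 and 225 CPM (1.59 ± 0.27, SE, adjusted p = 0.000403).

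Of 11 listed partner and related transcription factors 6 were in the table, and 1, Cebpg, a C/EBP protein that pairs with ATF4, rose with SR-3420 and Dox, from 43.4, 40.2 and 39.0 CPM to 80.4, 75.9 and 58.5 CPM (0.79 ± 0.18, SE, adjusted p = 0.00373). Of the 6, 0 fell, where 6.53% of all genes rose and 3.37% fell. Xbp1, the factor of another branch of the unfolded protein response, rose with ISO by 0.94 ± 0.21 (SE, adjusted p = 0.00126) without Dox and 0.74 ± 0.19 (SE, adjusted p = 0.00394) with Dox. Of 15 tested chaperone and quality control genes of the endoplasmic reticulum, SR-3420 with Dox raised 2 and lowered 0 (6.53% and 3.37% of all genes), at a median of -0.01. They were Derl1 (0.82 ± 0.18, SE, adjusted p = 0.00218) and Dnajb9 (1.40 ± 0.34, SE, adjusted p = 0.00737), the latter lost without replicate 1 of DMSO with Dox or replicate 2 of SR-3420 with Dox (adjusted p up to 0.0835). Herpud1, which acts in degradation of misfolded protein, fell with ISO, with log2 fold changes of -1.52 ± 0.21 (SE, adjusted p = 1.94e-06) without Dox and -1.07 ± 0.20 (SE, adjusted p = 0.000117) with Dox. ISO raised 2 and lowered 2 of these 15 with Dox (16.4% and 16.1% of all genes) and raised 0 and lowered 2 without Dox (14.5% and 13.5%).

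Over the 8 comparisons 29 of the 40 tested members passed at least once and 11 passed in none, namely Sesn2, Atf5, Eif4ebp1, Vldlr, Slc7a5, Psat1, Shmt2, Aldh1l2, Pycr1, Lars and Mars. Of these 11, Sesn2, Eif4ebp1, Slc7a5, Shmt2 and Pycr1 passed in at least 1 comparison with the replicate block. Ddit3, which codes for CHOP, had a listed length of 44 of its 5496 bases and overlaps Mars on the other strand, so reads of the 2 genes cannot be told apart without strand. Its counts were 11, 4 and 4 in DMSO, 1, 3 and 5 in ISO and 13, 7 and 15 in SR-3420 with Dox, a ratio per library total of 2.3 for SR-3420 with a 95% interval of 1.28 to 4.26 that covers counting error only. Without replicate 1 of SR-3420 with Dox, Ddit3 passed the filter. It was then higher under SR-3420 than under ISO with Dox (log2 2.03 ± 0.62, SE, adjusted p = 0.0233). Against DMSO its value there was 1.18 ± 0.54 (SE, adjusted p = 0.229). The comparison with ISO also passed with no filter on low counts. Ppp1r15a, the GADD34 phosphatase cofactor, had a listed length of 244 bases and 1 count in all in DMSO with Dox and 6, 1 and 5 in SR-3420 with Dox, a ratio of 15.0 (2.22 to 641). With no filter on low counts Ppp1r15a passed for SR-3420 with Dox. Chac1, which degrades glutathione, had 0 to 9 counts per library, and its ratio for SR-3420 with Dox was 1.14 (0.433 to 2.95).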

How the data were processed

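TruSeq total RNA libraries from 3 independent experiments were, per the labels and methods, aligned by the authors with STAR 2.4.2a to mm9, reduced with HOMER to 1 read per position and length, and counted with iRNA-seq 1.1 with its gene option. The deposited values are raw counts per gene. The strand setting is not given in the sources used here. Libraries were grouped by the labels. Here edgeR 4.0.16 with limma 3.58.1 in R 4.3.3 was run with TMM scaling and filterByExpr on all 18 libraries, with 1 mean per group and no covariate. The quasi-likelihood test gave 8 comparisons, with Benjamini-Hochberg adjustment over 10178 genes and a threshold of 0.05. The ratio of Slc3a2 to its light chains was tested by exact two-sided permutation. The code was tested on simulated data. DESeq2 1.42.0, other scalings and filters, a replicate block and leaving out each library were alternatives. Any member could be named. Values per library were printed for about 20 to 25 members that passed, smallest p first, for the light chains, and for 9 members that define the pathway whatever their p. Other lists were given by counts, with values for the genes named. The members and lists were chosen with earlier results of these data known. The matches of 1 riser are not reported here.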

Additional observations from a re-analysis of the deposited data

Results flagged for a closer look

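By the test of the difference itself, the response to SR-3420 differed between cells with and without Dox for 3 of 40 members. Of all genes 0.54% passed higher and 0.216% lower. The difference on the log2 scale was 2.21 for Trib3, 1.58 for Slc3a2 and 1.16 for Nupr1, each higher with Dox. With the replicate number as a block 13 members passed, a count without a share of all genes beside it.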

How the results depend on the processing

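Over 2939 values from alternatives, 2729 kept direction and side of the threshold, 145 lost it, 53 gained it and 12 reversed, all 12 among values that did not pass. With library totals only, the Slc1a5 difference between Dox states turned to -0.0949, Lars for SR-3420 with Dox to -0.0854 and Slc3a2 for SR-3420 against ISO to -0.000102, and with no filter Slc1a5 turned to -0.0173. Over the libraries left out, Slc1a5 ran from -0.0965 to 0.113, Nupr1 for ISO with Dox from -0.331 to 0.0497, and SR-3420 against ISO from -0.234 to 0.532 for Asns and from -0.132 to 0.196 for Slc3a2. The ISO counts of members passing were 14 without Dox and 20 with Dox. They were 9 and 13 when at least 10 counts were required in every library, where 30 members could be tested. Leaving out each library in turn gave 10 to 15 without Dox and 12 to 22 with Dox. For SR-3420 the count was 0 without Dox and became 1, Slc1a5, with no filter, with DESeq2 and with the replicate block, and 0 to 1 over the libraries left out. With Dox it was 19, 11 with library totals only and 12 to 21 over the libraries left out. The difference of responses between the Dox states passed for 0 members with ISO, 2 with no filter, 1 with DESeq2, 3 with the block and 0 to 2 over the libraries left out. With SR-3420 it passed for 3, 7 with no filter, 13 with the block and 2 to 7 over the libraries left out. SR-3420 against ISO gave 9, and 8 to 11 over the libraries left out, and Dox in DMSO gave 0 throughout. The labels do not say what a replicate number shares. Read per comparison, which was decided with the results known, all 3 same-numbered pairs correlated above 0.1 for ISO with Dox and for SR-3420 in each Dox state, but not for the others. Of 45 same-numbered pairs 36 had a correlation of deviations above 0.1 (0.0386 to 0.277), and all 18 libraries correlated best with their own number, a hint from the data that numbers may mark shared experiments. With the block, the difference of ISO responses passed for Asns, Cth and Slc3a2, and 18 members passed for ISO without Dox, 26 for ISO with Dox, 23 for SR-3420 with Dox and 13 for SR-3420 against ISO. The shares of all genes passing in each alternative are not given here. Library totals only shifted the median of all genes by up to -0.207 (SR-3420 with Dox), and the members' median exceeded it by 0.688 there against 0.724 with TMM. The log2 ratio of Slc3a2 to its light chains turned to 0.744 for ISO without Dox against Slc7a5, to -0.196 for ISO with Dox, -0.434 for SR-3420 without Dox and -0.659 for Dox in DMSO against Slc7a11, and to -0.0940 for Dox in DMSO against Slc7a5. With each library left out, an alternative chosen after seeing the data, the ratio differed by -0.836 to -0.412, 0.367 to 0.692, -0.0102 to 0.357, 1.14 to 1.46 and -0.0793 to 0.326 for ISO without Dox, ISO with Dox, SR-3420 without Dox, SR-3420 with Dox and Dox in DMSO. Beyond each alternative's own construction, the cause of these changes was not tested. Low counts of Atf3, Ddit4, Slc7a5 and Slc7a11 limit their precision.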
